A study of Bos taurus with 16 samples.

Results

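A mammalian embryo becomes a blastocyst when its outer epithelium, the trophectoderm, moves ions and water inward and fills a cavity, the blastocoel. The motor of this transport is the Na,K-ATPase, a pump made of a catalytic alpha subunit and a beta subunit that folds the pump and carries it to the membrane. Sodium enters the trophectoderm through carriers such as Na/H exchangers and Na-K-Cl cotransporters, the pump exports it into the cavity, and water follows through channels of the aquaporin family. The 8 genes described here belong to this system: the beta subunits ATP1B1, ATP1B2 and ATP1B3, the water channels AQP3, AQP8 and AQP11, the Na/H exchanger SLC9A3 and the Na-K-Cl cotransporter SLC12A2. They were found by their gene symbols, which matched 9 of the 22358 loci in the count tables, because AQP8 is listed at a pair of loci.

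The RNA came from expanded blastocysts of Holstein cows, pooled within a cow, with 2 pools from each of 8 cows. The 2 treatments, fed during early lactation, were a control diet and a methionine-rich diet that shared its base and differed in methionine. The study assigned a larger number of cows to the diets at random. After flushing it selected these 8, 4 per treatment, by the number and quality of their embryos, balanced over the 2 sires used for insemination. The sample labels call the tissue IVF embryos, whereas the study's methods describe embryos flushed from the cows, and the 2 statements were not reconciled here. Ages of the cows were not given in the sources used here. Each pool is named by its treatment (C or M), cow and pool number, for example M8.2. The study reports a single blastocyst for each of C4.1, C4.2 and M8.2 and more for every other pool. The pools with the most blastocysts were methionine-rich. Because the RNA of a few embryos was amplified before sequencing, a pool reports relative transcript abundance, and fewer cells of a type cannot be told apart from less RNA per cell.

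The total count was between 5624126 and 7826542 in 15 of the pools and 1745048 in control pool C3.2, which the study left out because few of its reads lay on exons and which is given separately below. At these depths 3 counts were worth 0.383 to 0.533 CPM (counts per 1000000 counts of the pool), and 1.72 CPM in C3.2. Of the 14 trophectoderm marker loci examined, 6 had at least 10 counts in each of the 15 pools. All 14 summed to 3790 to 9680 CPM in control and 3070 to 7040 CPM in methionine-rich pools, highest in C4.2. KRT18 added a mean of 3490 CPM to this sum and GATA2 706 CPM, but CDX2 3.92 CPM and ELF5 1.6 CPM. Leukocyte markers summed to 2410 CPM in control pool C2.1, to at most 65.8 CPM in the other control pools of the comparison and to 18.8 to 55.5 CPM in methionine-rich pools. Of the 14 leukocyte loci, LAPTM5, NKG7, TYROBP and LCP1 had highest counts of 6969, 2698, 2122 and 1031 over the 15 pools. Several others were sparse: CD3E and CD2 had 0 counts, CD3D at most 1, FCER1G at most 8, CD74 and CORO1A at most 14 each, PTPRC at most 48 and IL2RG at most 69. CD53 had a highest count of 431. CD48 had at least 10 counts in each of the 15 pools, with a mean of 27.4 CPM. Without C2.1, the fitted log2 fold changes of the 4 tested members were 0.22 for ATP1B3, -0.34 for AQP3, 0.92 for AQP11 and 0.05 for SLC12A2, and that of OXSR1, described below, was -3.62. Gene lengths of the files' own models were not at hand, and levels are therefore compared between pools and not between genes.

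None of the 8 genes was called as different between treatments. Treatments were compared over 7 control and 8 methionine-rich pools with edgeR's exact test, and a locus was called at a false discovery rate (FDR) under 0.10 and a difference of at least 2-fold. Of the 8 genes, 4 had enough counts to be tested, namely ATP1B3, AQP3, AQP11 and SLC12A2, and 0 of these 4 were called, where 110 of 10519 loci, or 1.05%, were called in all. Without the fold requirement their smallest FDR was 0.932, at an unadjusted p of 0.247 for AQP11, and 0 of the 4 had an unadjusted p under 0.05. The quasi-likelihood test of edgeR, DESeq2 and limma also called 0 of them. However, the quasi-likelihood test and limma called 0 of all 10519 loci, so their result says nothing particular about these genes. DESeq2 called 67 of the 10519 loci. ATP1B1, ATP1B2, AQP8 and SLC9A3 were below the filter of 15 CPM summed over the 15 pools and were compared by their counts only.

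**Figure D1:**
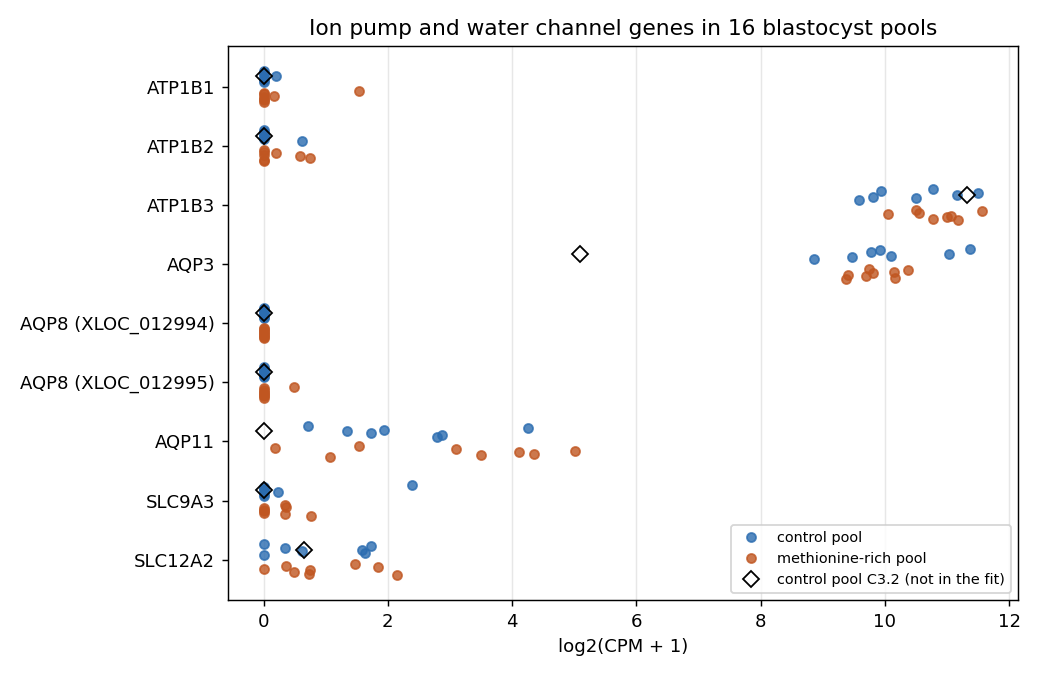
Each point is 1 pool, placed by log2(CPM + 1) of the gene named on the vertical axis, with control pools in blue, methionine-rich pools in orange and control pool C3.2 as an open diamond. ATP1B3 and AQP3 lie far to the right in the 15 pools, ATP1B1, ATP1B2, AQP8 and SLC9A3 lie at or near 0, and the treatments overlap for each gene with counts in both.

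Of the 3 beta subunits, ATP1B3 alone had counts in every pool. ATP1B3 (XLOC_000770) had a lowest, median and highest level of 768, 1450 and 2890 CPM in control pools, and of 1060, 1900 and 3030 CPM in methionine-rich pools. Both ranges overlap over most of their width, with C1.1 lowest and M8.1 highest of the 15 pools. Averaged within cows, the level was 1740 ± 791 CPM in control and 1910 ± 434 CPM in methionine-rich cows (SD, n = 4 cows each), a difference of 174 CPM that was smaller than either SD (exact permutation test over cows, two-sided, p = 0.714). The fitted log2 fold change, methionine-rich over control, was 0.28 (exact test FDR 0.994), and limma's voom fit, which takes the cow as a random effect, put it at 0.34 with a 95% interval of -0.23 to 0.91. Without C2.1 the difference of cow means was -1.67 CPM, and without cow 1 it was -36.1 CPM, so even its sign depended on a single pool or cow.

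ATP1B1 encodes the beta subunit found in most epithelia of the body. ATP1B1 (XLOC_005532) had 0 counts in 12 of the 15 pools, 1 count in C2.2, 1 count in M7.1 and 14 counts in M8.2. The last value corresponds to 1.89 CPM (95% Clopper-Pearson interval 1.03 to 3.17, counting error only) and holds 87.5% of all counts of the gene. Its other pool of the same cow, M8.1, had 0 counts. ATP1B2, a beta subunit best known from glial cells and also called adhesion molecule on glia, was as sparse: ATP1B2 (XLOC_008043) had 5 counts in M6.1 and 3 in the other pool of that cow, 4 counts in C1.1, 1 in M7.2 and 0 in the other 11 pools. The cow means of both genes overlapped between treatments (exact permutation p = 0.714 for each), and with these counts and pools no difference could be detected.

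Of the FXYD proteins, small regulators that bind the pump, FXYD4 was measured at 66.1 to 228 CPM in control and 59.8 to 196 CPM in methionine-rich pools, and its fitted log2 fold change was -0.09 (FDR 1). Over the 15 pools, which share cows, the 3 named loci with the highest Spearman correlation with ATP1B3 were ING2 at 0.939, SLC31A1 at 0.907 and SNX1 at 0.896, given as a description only.

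AQP3, an aquaporin that passes glycerol as well as water, had at least 3501 counts in each of the 15 pools. AQP3 (XLOC_020492) had a lowest, median and highest level of 462, 974 and 2660 CPM in control pools and of 661, 875 and 1330 CPM in methionine-rich pools. The highest values were those of control pools C4.2 and C2.2, at 2660 and 2100 CPM, but the lowest was a control pool as well, so the methionine-rich range lay inside that of the controls. Cow means were 1220 ± 585 CPM in control and 941 ± 147 CPM in methionine-rich cows (SD, n = 4 each), a difference of -278 CPM (exact permutation p = 0.4). The fitted log2 fold change was -0.37 (exact test FDR 0.958), with a 95% interval of -0.93 to 0.39 around -0.27 in the voom fit with cow. Leaving out cow 4 brought the fitted value to -0.09, and leaving out cow 1 brought it to -0.60.

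No relation between AQP3 and ATP1B3 was detected. Over the cow means of log2(CPM + 1), Pearson's r was -0.0948 (n = 8 cows, permutation p = 0.809) and Spearman's rho was -0.119 (permutation p = 0.793). Both p-values are unadjusted. Without the 2 cows farthest from the median of ATP1B3, r was -0.686, so the value was not stable. With 4 cows in a treatment it could not be examined within treatments, and the sequencing lane of the pools was not known. The log2 ratio of AQP3 to ATP1B3 ranged from -1.73 to 0.60 in control and from -1.81 to -0.25 in methionine-rich pools. Its cow means were -0.556 ± 0.936 and -0.997 ± 0.497 (SD, n = 4 each, exact permutation p = 0.429). The named loci closest to AQP3 over the 15 pools were XPC, UCK2 and SLC39A9, with Spearman correlations of 0.764, 0.746 and 0.739. They were picked as the highest of all loci tested and are a description only. Pearson's r of XPC was 0.432.

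**Figure D2:**
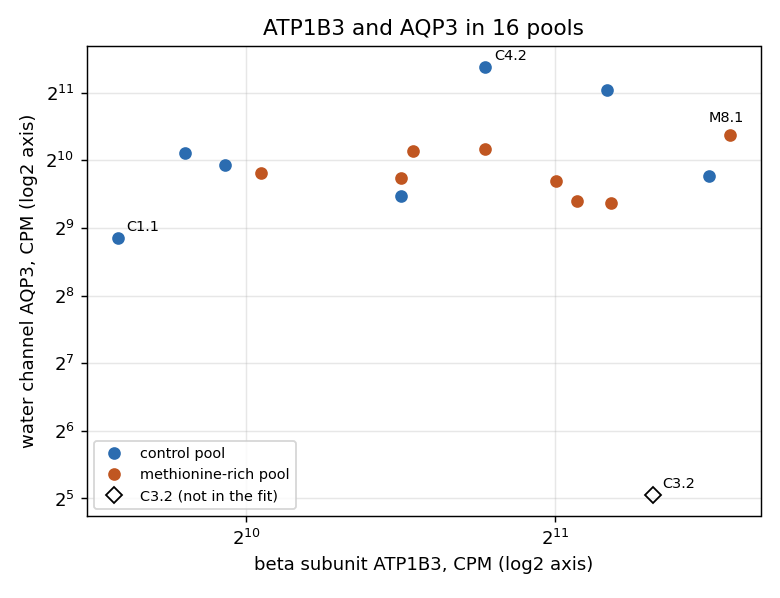
Each point is 1 pool, with ATP1B3 in CPM on the horizontal and AQP3 in CPM on the vertical axis, both on log2 axes, control pools in blue, methionine-rich pools in orange and C3.2 as an open diamond. The 15 pools of the comparison form no band, and C3.2 lies far below them at 33.2 CPM of AQP3.

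AQP11, an unusual aquaporin located mainly inside the cell, was detected in all 15 pools but over a much wider range than ATP1B3 or AQP3. AQP11 (XLOC_014503) had a lowest, median and highest level of 0.643, 2.83 and 18.1 CPM in control pools and of 0.139, 8.94 and 31.4 CPM in methionine-rich pools. The extremes were both methionine-rich, with 1 count in M8.1 (0.139 CPM, 95% Clopper-Pearson interval 0.00352 to 0.776) and 246 counts in M7.1 (31.4 CPM, 27.6 to 35.6), and the ratio of these 2 levels was 226. Cow means were 5.07 ± 3.4 CPM in control and 11 ± 9.09 CPM in methionine-rich cows (SD, n = 4 each, exact permutation p = 0.343). In order, they were 1.93, 2.83, 6.12 and 9.39 CPM in control and 1.01, 5.70, 17.9 and 19.5 CPM in methionine-rich cows, so that the 2 highest cows and the lowest cow were methionine-rich. The fitted log2 fold change was 1.04 (exact test FDR 0.932), and 1.05 with a standard error of 0.87 in DESeq2. The voom fit gave 0.56 with a 95% interval of -1.63 to 2.75, which includes both a 2-fold decrease and a 2-fold increase. The value of the exact test was 0.51 without cow 7 and 1.56 without cow 4. As a description only, the named loci closest to AQP11 over the 15 pools were HSPE1, a mitochondrial chaperonin, at a Spearman correlation of 0.846, and WBP1 and MED31, both at 0.825.

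AQP8, a channel that passes ammonia as well as water, was at the limit of the depth. Its locus XLOC_012994 had 0 counts in all 16 pools, and its locus XLOC_012995 had 3 counts in M8.2 (0.405 CPM, 95% Clopper-Pearson interval 0.0835 to 1.18) and 0 in the other 15 pools. In a single pool of the comparison, 0 counts allow a level of up to 0.383 to 0.533 CPM, the worth of 3 counts. Of the 10 other aquaporins in the tables, 5 had 0 counts in the 15 pools, among them AQP1 and AQP5, and AQP7 alone was tested, with a log2 fold change of 0.18.

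The 2 pools of a cow often differed widely in these genes. Over the 7 cows with 2 pools, the absolute log2 ratio of their levels had a median of 0.842 for ATP1B3 (0.063 to 1.36, widest in cow 2), 0.643 for AQP3 (0.305 to 1.45, widest in cow 4) and 2.05 for AQP11 (0.0853 to 4.82, widest in cow 4). For 1406 loci with at least 100 CPM on average and 10 counts in every pool, the median of the same ratio was 0.534. The SD of log2 CPM over the 15 pools was 0.61 for ATP1B3 and 0.64 for AQP3, near the median of 0.60 over those loci, against 2.14 for AQP11. With a mean of 8.4 CPM, AQP11 lay well below the level of those loci, and loci of its own level were not compared.

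**Figure D3:**
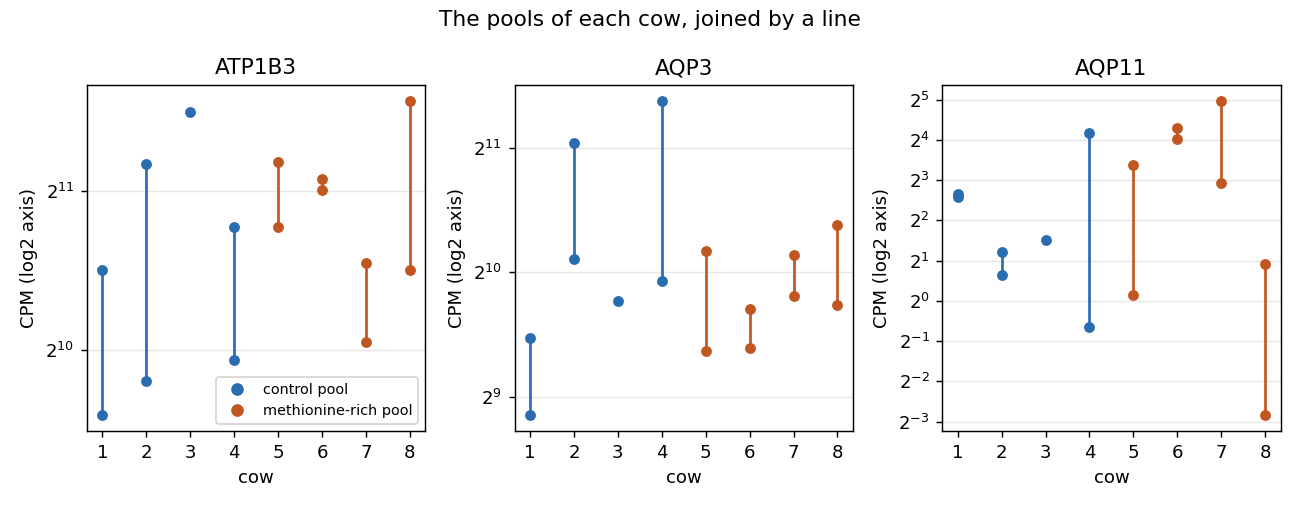
Points are pools of ATP1B3, AQP3 and AQP11 in CPM on log2 axes, in columns by cow, with control cows 1 to 4 in blue and methionine-rich cows 5 to 8 in orange, and a line joining the 2 pools of a cow (cow 3 has 1 pool because C3.2 is left out). The lines of several cows reach across much of the range of all pools, and the vertical scale of AQP11 spans many more doublings than the others.

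Sodium entry was represented by carriers with very few reads. SLC9A3 encodes an exchanger of the apical membrane that takes up sodium in return for protons. SLC9A3 (XLOC_010149) had 33 counts in C4.2, 5 in M5.1, 2 each in M5.2, M8.1 and M8.2, 1 in C2.1 and 0 in the other 9 pools. C4.2 thus held 73.3% of its counts, at 4.24 CPM (95% Clopper-Pearson interval 2.92 to 5.96), while C4.1, the other pool of that cow, had 0. The cow means differed by -0.365 CPM (exact permutation p = 0.886), and without cow 4 by 0.158 CPM. Of the scaffold genes that anchor this exchanger, SLC9A3R2 had a count in 4 of the 15 pools and PDZK1 in 11, whereas SLC9A3R1 and EZR, the gene of ezrin, had counts in all 15. SLC9A3R1 was at 342 to 1060 CPM in control and 381 to 1030 CPM in methionine-rich pools (log2 fold change 0.17, FDR 1), and EZR was at 603 to 2220 and 557 to 1650 CPM (-0.37, FDR 0.942, and -0.19 without C2.1). CHP1, a cofactor of Na/H exchangers listed as CHP, had a log2 fold change of 0.05 (FDR 1). Of the Na/H exchangers other than SLC9A3, 3 loci were tested and 0 were called.

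SLC12A2 encodes NKCC1, which brings sodium, potassium and chloride into the cell together. SLC12A2 (XLOC_019580) had 0, 14, 3, 13, 2, 14 and 0 counts in C1.1, C1.2, C2.1, C2.2, C3.1, C4.1 and C4.2. It had 25, 5, 3, 4, 0, 17, 2 and 13 counts in the methionine-rich pools from M5.1 to M8.2. Pools at 0 and pools above 10 counts occurred in both treatments, and in cows 1, 4 and 7 a pool at 0 stood beside a pool with 14, 14 and 17 counts. Cow means were 0.936 ± 0.454 CPM in control and 1.23 ± 0.632 CPM in methionine-rich cows (SD, n = 4 each, exact permutation p = 0.457). The fitted log2 fold change was 0.13 (exact test FDR 1), and 0.12 with a standard error of 1.17 in DESeq2. The voom fit gave 0.59 with a 95% interval of -1.74 to 2.92, so that a difference of several-fold in either direction could not be detected with these counts and pools.

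**Figure D4:**
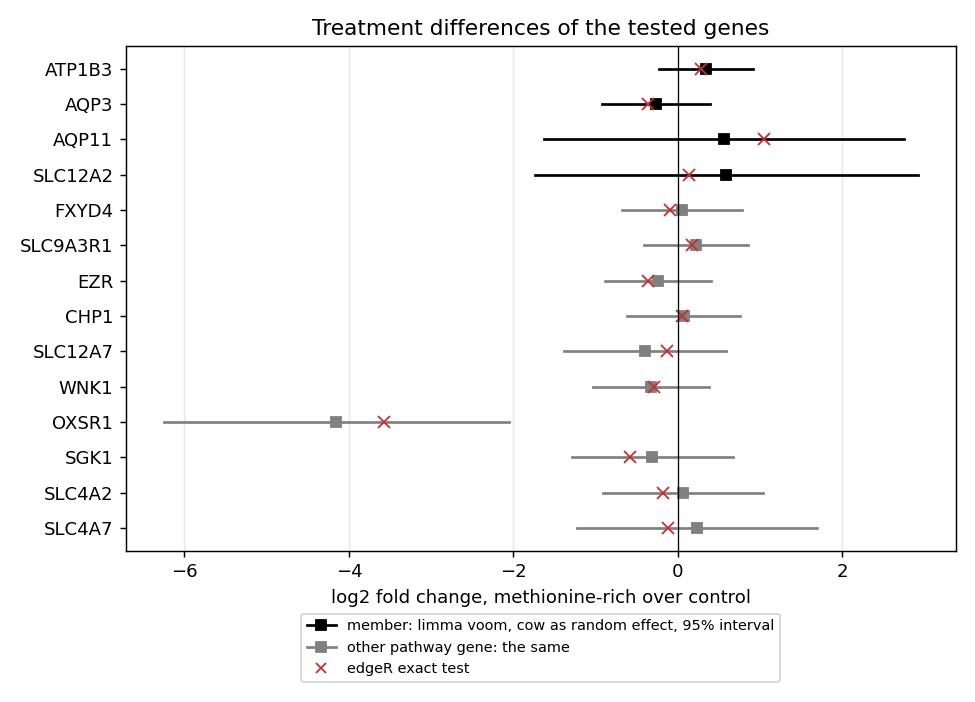
For each tested gene named in the text, squares give the log2 fold change, methionine-rich over control, from limma voom with a random effect of cow, with bars for the 95% interval (members in black, other genes of ion and water transport in grey), and crosses give edgeR's exact test. The intervals of the 4 members include 0, those of AQP11 and SLC12A2 being the widest among them, and the interval of OXSR1 lies below 0.

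Among the other genes of ion and water transport examined, OXSR1 fell in the methionine-rich treatment by the exact test. A list of 73 such genes had 71 loci in the tables, of which 25 were tested, 0 were called higher and 1 was called lower, where 81 of the 10519 loci tested, or 0.77%, were called lower. Their median log2 fold change was -0.13, with 10 above and 15 below 0, beside -0.05 over all loci tested, with 4888 above and 5631 below. The list was drawn up with earlier results of these data known, and the counts are given as a description.

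OXSR1 encodes a kinase that phosphorylates and activates SLC12A2 in response to cell shrinkage. OXSR1 (XLOC_010905) had 11 counts in C1.1 and 62 to 232 in the other 6 control pools, beside 36 in M6.2, 17 in M5.1, 11 in M7.2 and 0 to 9 in the other 5 methionine-rich pools. The pools overlapped through C1.1 alone, but the cow means did not: they were 10.6, 14.0, 18.1 and 20.3 CPM in control and 0.0675, 0.963, 1.77 and 3.10 CPM in methionine-rich cows. Some of these means joined unlike pools. Cow 1 had 1.45 CPM in C1.1 and 34.8 CPM in C1.2, and cow 6 had 0.136 CPM in M6.1 and 6.06 CPM in M6.2. The means of 15.8 ± 4.32 and 1.47 ± 1.29 CPM (SD, n = 4 cows each) differed by -14.3 CPM, with an exact permutation p of 0.0286, the smallest that 4 against 4 cows can give. Cow means failed to overlap at 232 of the 10519 loci, or 2.21%, and were lower in the methionine-rich treatment at 110, or 1.05%. The fitted log2 fold change was -3.57 with an FDR of 0.0282 in the exact test, and DESeq2 gave an FDR of 0.00799. The quasi-likelihood test, which called 0 loci or 0.0% of those tested (909 had an unadjusted p under 0.05), gave it an FDR of 0.302. In the voom fit with cow the value was -4.15 with a 95% interval of -6.25 to -2.06 and an FDR of 0.843. The call of the exact test was lost without cow 5 (FDR 0.113) and without cow 7 (FDR 0.129), while the fold change stayed at -3.61 and -3.43.

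**Figure D5:**
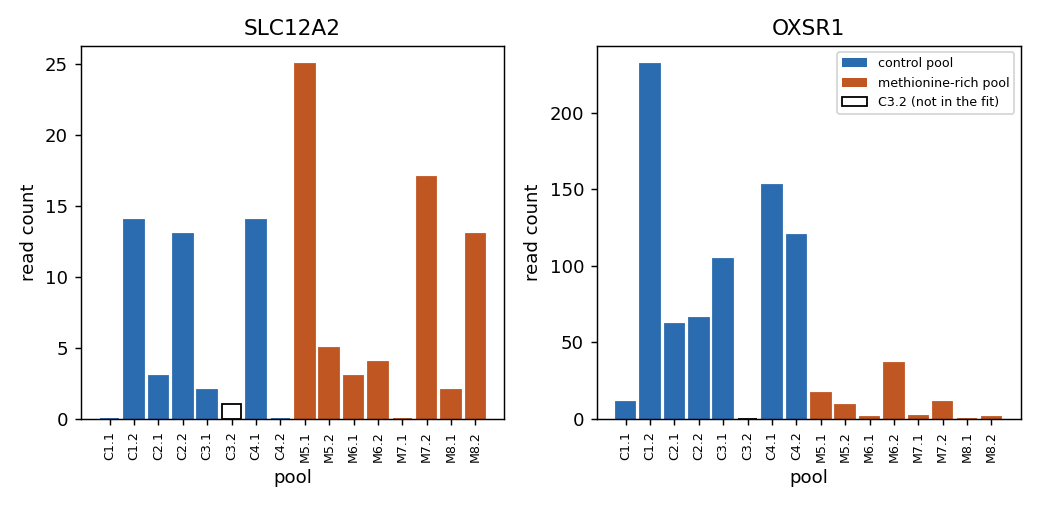
Bars are read counts of SLC12A2 and OXSR1 in each of the 16 pools, each axis starting at 0, with control pools in blue, methionine-rich pools in orange and C3.2 outlined. SLC12A2 has tall and empty bars in both treatments, and OXSR1 is above 60 counts in 6 of the 7 control pools of the comparison and at most 36 in methionine-rich pools.

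Other regulators and carriers of the list with a mean of at least 20 CPM were not called. WNK1, the kinase that activates OXSR1, was at 37.4 to 111 CPM in control and 24.1 to 110 CPM in methionine-rich pools (log2 fold change -0.29, FDR 0.998). SGK1, a kinase that stimulates sodium transport, was at 151 to 1380 and 148 to 676 CPM (-0.58, FDR 0.9). Its highest value was that of C2.1, the pool with the highest sum of leukocyte markers. Without that pool its fitted log2 fold change was 0.02 (unadjusted edgeR exact test p = 0.981). SLC12A7, which carries potassium and chloride out of the cell, had a log2 fold change of -0.13, and the bicarbonate carriers SLC4A2 and SLC4A7 had -0.18 and -0.13 (FDR 1 for each). SLC4A7 spanned 3.9 to 195 CPM in control pools, and its ratio of highest to lowest pool, 50.0, was the widest of this group.

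The control pool left out of the comparison, C3.2, had a different balance among these genes. Its ATP1B3 level of 2550 CPM lay inside the range of the other control pools, whereas AQP3 was at 33.2 CPM (58 counts, 95% Clopper-Pearson interval 25.2 to 43.0), below each of the 15 others. The log2 ratio of AQP3 to ATP1B3 was -6.26 in C3.2, and FXYD4 was at 474 CPM, above each of them. AQP11 had 0 counts in C3.2, which allows up to 1.72 CPM, and SLC12A2 had 1 count. OXSR1 had 0 counts there as well, unlike the 7 other control pools. With C3.2 included, the cow means of OXSR1 differed by -12.5 CPM, and the exact test gave it an FDR of 0.0466. With all 16 pools in the exact test, 0 of the members were called, and the log2 fold changes of ATP1B3, AQP3, AQP11 and SLC12A2 were 0.01, -0.18, 1.22 and 0.15.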

How the data were processed

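The authors mapped reads to the bovine genome bosTau7 with TopHat2 2.0.4, assembled transcripts with Cufflinks 2.0.2 and counted uniquely mapped reads per gene with HTSeq, per the submitters' processing notes and the study's methods. The deposited values are raw counts, not normalized, in 1 table of 22552 rows per pool. A locus listed under several names (182 loci) was entered once. Whether counting used the strand is not given in the sources used here, so antisense genes or near-identical copies may share reads with a member.

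CPM was the count over the pool total. As in the study's methods, C3.2 was left out, loci with at least 15 CPM summed over the 15 pools were kept, and treatments were compared with edgeR 4.0.16 in R 4.3.3 (TMM, common and tagwise dispersion, exact test, prior count 0.125, Benjamini-Hochberg over 10519 loci). This test treats the 2 pools of a cow as independent. Cow means were therefore compared by an exact, two-sided permutation test over the 70 assignments of 8 cows (smallest p 0.0286). The 8 cows were selected after the diets were fed, and the test takes that selection as given. edgeR's quasi-likelihood test, DESeq2 1.42.0 (which gave standard errors) and limma 3.58.1 voom with cow as a random effect were alternatives, as were other normalizations, filters and thresholds, and each cow left out. Intervals and floors cover counting error only. The code was tested on simulated data.

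Named genes were the 8 members, listed pathway genes that were called or averaged at least 20 CPM, and, for members with at least 10 counts in 12 pools, the 3 named loci closest in Spearman correlation. Members and lists were chosen with earlier results of these data known. Some listed genes are not reported here. No sequences were at hand.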

Additional observations from a re-analysis of the deposited data

Results flagged for a closer look

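Of 35 combinations of a gene and a treatment with any counts, 11 held 1 pool apart from the rest by the ratio of its gap to the group's range. The pool was the highest of its group in all 11. The cutoff gives about 1 in 20 for normally distributed values. CPM over pools need not be so distributed, so the 11 are not read as an excess. Sparse counts give such ratios readily, since a single pool with counts among pools at 0 has a ratio of 1. ATP1B1 was set apart in C2.2 (ratio 1.0, from 1 count) and in M8.2 (0.932, from 14 counts), ATP1B2 in C1.1 (1.0, from 4 counts), AQP8 in M8.2 (1.0, from 3 counts) and SLC9A3 in C4.2 (0.958, from 33 counts) and M5.1 (0.596, from 5 counts). AQP11 was set apart in C4.1 (0.677, from 110 counts).

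Among the other genes of the pathway, the pool set apart was C4.2 for SLC12A7 (0.646), M6.2 for OXSR1 (0.613), C2.1 for SGK1 (0.67) and M5.1 for SLC4A2 (0.758). In C3.2, the pool outside the comparison, FXYD4 was at 474 CPM and SGK1 at 3160 CPM, above the highest of the 15 other pools, 228 and 1380 CPM.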

How the results depend on the processing

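In each of the 20 alternatives, 0 members were called, and the log2 fold changes of ATP1B3, AQP3 and AQP11 kept their sign. Not all alternatives could have called a member. The quasi-likelihood, voom and replicate-block fits called 0 of all loci, and the stricter FDR of 0.05 cannot add calls. SLC12A2 did not pass the filter in some of the alternatives. The number of loci called, 110, was 0 with the quasi-likelihood test and with voom and cow, 67 with DESeq2, 341 with all 16 pools, 64 without C2.1, 55 with no filter, 6 with at least 1 CPM in 7 pools, 60 at an FDR of 0.05 and 62 to 153 with a cow left out. The number of pathway genes called, 1 (OXSR1), was 0 with the quasi-likelihood test and with voom and cow, 0 to 1 with a cow left out, and 2 with all 16 pools, where SLC5A1, named after its value was seen, was added. SLC5A1 had 0 counts in the 15 pools of the comparison, so its call rested on C3.2 alone. With a replicate block for the pool number, in the quasi-likelihood fit, 0 loci and 0 pathway genes were called, and the pool number is only a number within a cow.

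With a cow left out, the SLC12A2 log2 fold change ranged from -0.0186 to 0.38 (in the 2 fits where it passed the filter), and the difference of cow means in CPM from -0.0406 to 0.167 for ATP1B2, from -36.1 to 557 for ATP1B3, from 0 to 0.0675 for AQP8 (XLOC_012995) and from -0.549 to 0.158 for SLC9A3. ATP1B3 differed by -1.67 CPM without C2.1, and the log2 ratio of AQP3 to ATP1B3 by 0.12 with all 16 pools, an alternative chosen after seeing the data, against -0.44. The cause was not tested. Low counts limit ATP1B1, ATP1B2, AQP8, SLC9A3 and SLC12A2, and 8 cows with wide pool differences limit the rest. Pool differences beyond counting error occurred among the sparse genes too. SLC12A2 was at 3.44 CPM in M5.1 (95% Clopper-Pearson interval 2.23 to 5.09) and at 0 in M7.1 (up to 0.471). SLC9A3 was at 4.24 CPM in C4.2 (2.92 to 5.96) and at 0 in C4.1 (up to 0.608).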
